A study of Mus musculus with 8 samples.

Results

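Egr factors, their NAB corepressors and other early genes linked to the serum response factor were examined in AtT20 cells given the RXR agonist HX630. The 10 genes are *Egr1*, *Egr2*, *Egr3*, *Egr4*, *Nab1*, *Nab2*, *Srf*, *Ier2*, *Ier3* and *Arc*, chosen by name and found on the arrays through the RefSeq accession of their probes. They are 10 of the 19751 genes that could be named, and 12 of the 39429 probes belong to them. Every one of these 12 probes passed the filter on dim probes.

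AtT20 is a mouse line of corticotroph tumor cells from the pituitary that secrete ACTH. For the experiment, all samples were kept for 48 hr in DMEM with 1% stripped FBS. The 4 control samples had no agonist and the 4 HX630 samples had HX630 at 10 μM, and RNA of each sample was hybridized to its own 1-color array. The labels give replicate numbers but no separate passages or days, so the p-values measure the spread between these samples, which may be technical. The signal of a probe is given throughout as the log2 of its processed intensity minus the 75th percentile of its array, so that 0 stands for that percentile. A gene with several probes is counted by its brightest probe, and signals of different probes are not set against each other. A probe was called when its fold change exceeded 1.5 (0.585 on the log2 scale) with a limma adjusted p under 0.01.

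The 75th percentile of the intensities was between 1335 and 1899 over the 8 arrays, and 69.7% to 73.5% of the probes were well above background. The slide and the scan differed between the groups and were shared within each, so treatment, slide and scan cannot be told apart. Of 7 corticotroph markers, 6 were well above background on all arrays, *Pomc* and *Tbx19* among them, whereas *Avpr1b* was on none. Summed over the list, their signal relative to the 75th percentile was 301 to 376 on the control arrays and 223 to 232 on the HX630 arrays, carried by *Pomc* and *Pcsk1*. The list did not move one way. Of the 6 markers tested, *Pcsk1* (-2.06) was called lower and *Neurod1* (0.72) and *Crhr1* (1.11) higher, and the median log2 fold change was 0.03. Markers of other pituitary hormone cells summed to 0.145 to 0.27 and 0.174 to 0.199, and *Prl*, *Tshb* and *Cga* were on no array above background. Fibroblast markers summed to 0.0892 to 0.106 on the control arrays and 0.106 to 0.145 on the HX630 arrays, with *Lum* and *Pdgfra* above background on no array. Endothelial markers (2.71 to 3.35 and 2.15 to 2.63) and immune markers (4.81 to 6.88 and 4.78 to 6.91) were carried by *Kdr* and *Itgam*, while *Cdh5* was above background on no array. Of the markers of other cells, *Dcn* of fibroblasts (1.04) was called higher, and *Gh* (-0.79) and the endothelial *Pecam1* (-0.59) were called lower. The part of these cells in the results was not tested. Lower RNA per cell and fewer cells that express a gene cannot be told apart in such samples.

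Immediate early genes are transcribed within minutes of a stimulus, before any new protein is made. Growth factors and depolarization act on many of them through the ERK kinases, which phosphorylate ternary complex factors such as Elk1 that sit with the serum response factor (SRF) on CArG boxes. The EGR proteins are zinc finger factors made in this way, and the NAB proteins bind EGR factors and repress their activity, with *Nab2* itself a known EGR target. In corticotrophs, early gene programs follow stimulation by CRH and include the Nur factors that act on the *Pomc* promoter.

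The letters of the promoters are shown for the 2 genes that were called lower and for *Srf*, which encodes the factor that binds CArG boxes. The windows come from RefSeq on GRCm38.p6 and run from 250 bases before to 50 bases after the gene start. Of the 10 genes, 6 have such windows. *Egr1*, *Egr3*, *Ier2* and *Arc* are not in the table. Capitals mark CArG boxes.

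Egr2, chr10:67537619-67537918, plus strand: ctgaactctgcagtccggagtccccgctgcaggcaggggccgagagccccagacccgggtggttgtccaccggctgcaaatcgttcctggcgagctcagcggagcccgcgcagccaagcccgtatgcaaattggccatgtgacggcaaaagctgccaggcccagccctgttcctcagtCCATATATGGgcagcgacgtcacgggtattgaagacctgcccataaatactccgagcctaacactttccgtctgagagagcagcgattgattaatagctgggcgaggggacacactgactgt
Ier3, chr17:35821463-35821762, plus strand: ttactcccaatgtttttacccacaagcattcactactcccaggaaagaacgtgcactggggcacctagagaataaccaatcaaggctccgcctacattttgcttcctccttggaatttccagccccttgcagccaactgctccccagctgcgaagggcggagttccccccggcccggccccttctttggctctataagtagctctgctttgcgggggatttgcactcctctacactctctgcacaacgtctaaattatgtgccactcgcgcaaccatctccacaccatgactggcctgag
Srf, chr17:46556113-46556412, minus strand: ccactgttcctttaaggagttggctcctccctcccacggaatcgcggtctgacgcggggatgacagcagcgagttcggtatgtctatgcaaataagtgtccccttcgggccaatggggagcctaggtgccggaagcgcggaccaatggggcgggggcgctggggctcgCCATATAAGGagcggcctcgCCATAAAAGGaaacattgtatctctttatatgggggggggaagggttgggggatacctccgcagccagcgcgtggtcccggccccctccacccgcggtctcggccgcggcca

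A perfect CArG box, whose pattern finds the same positions on both strands, was in 1.63% of all 32851 windows. *Egr2* has 5 windows for its different starts, and 4 of them hold 1 such box. These are not 4 separate boxes, since overlapping windows share the same CCATATATGG. The only other box is the CCTTTTTTGG of a window further upstream. The box printed here begins at -72 relative to the gene start. The *Srf* window holds 2 boxes, at -82 and -62. None was found in the windows of *Ier3*, *Egr4*, *Nab1* and *Nab2*. The letters GCGNGGGCG, an EGR site searched on both strands, were in 5.55% of all windows, 3 times in that of *Nab1*, once in that of *Srf* and not in that of *Nab2*. The letters TGACG, the core of the CREB element, were in 20.8% of all windows on either strand. They were found 2 times each in the windows of *Egr4* and of the *Egr2* start printed here, and once each in those of *Nab1* and *Srf*. A match is a description of the sequence only.

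With HX630, *Egr2* and *Ier3* were called lower, at 41.5% and 31.7% of the control signal, and none of the 10 genes was called higher. Over all 15319 genes tested, 19.5% were called, 11.2% lower and 8.38% higher. The median log2 fold change of the 10 genes was -0.09, against -0.03 over all genes. *Egr1* was the 1 gene of the 10 with a higher mean signal under HX630, at 0.56, a fold change of 1.48 that is just under the threshold. *Nab2* was at -0.54, a fold change of 1.46, also just under it. The other 6 genes lay between -0.21 and -0.02. The HX630 arrays were all lower than the control arrays in 6 of the 10 genes, a pattern seen in 32.8% of all genes, and all higher in 1, against 28.6% of all genes. In either direction, 61.5% of all genes did not overlap. Of the 10 genes, 1 with a higher mean and 4 with a lower mean had an adjusted p below 0.01 when the fold change was left aside, whereas 51.2% of all genes did.

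**Figure D1:**
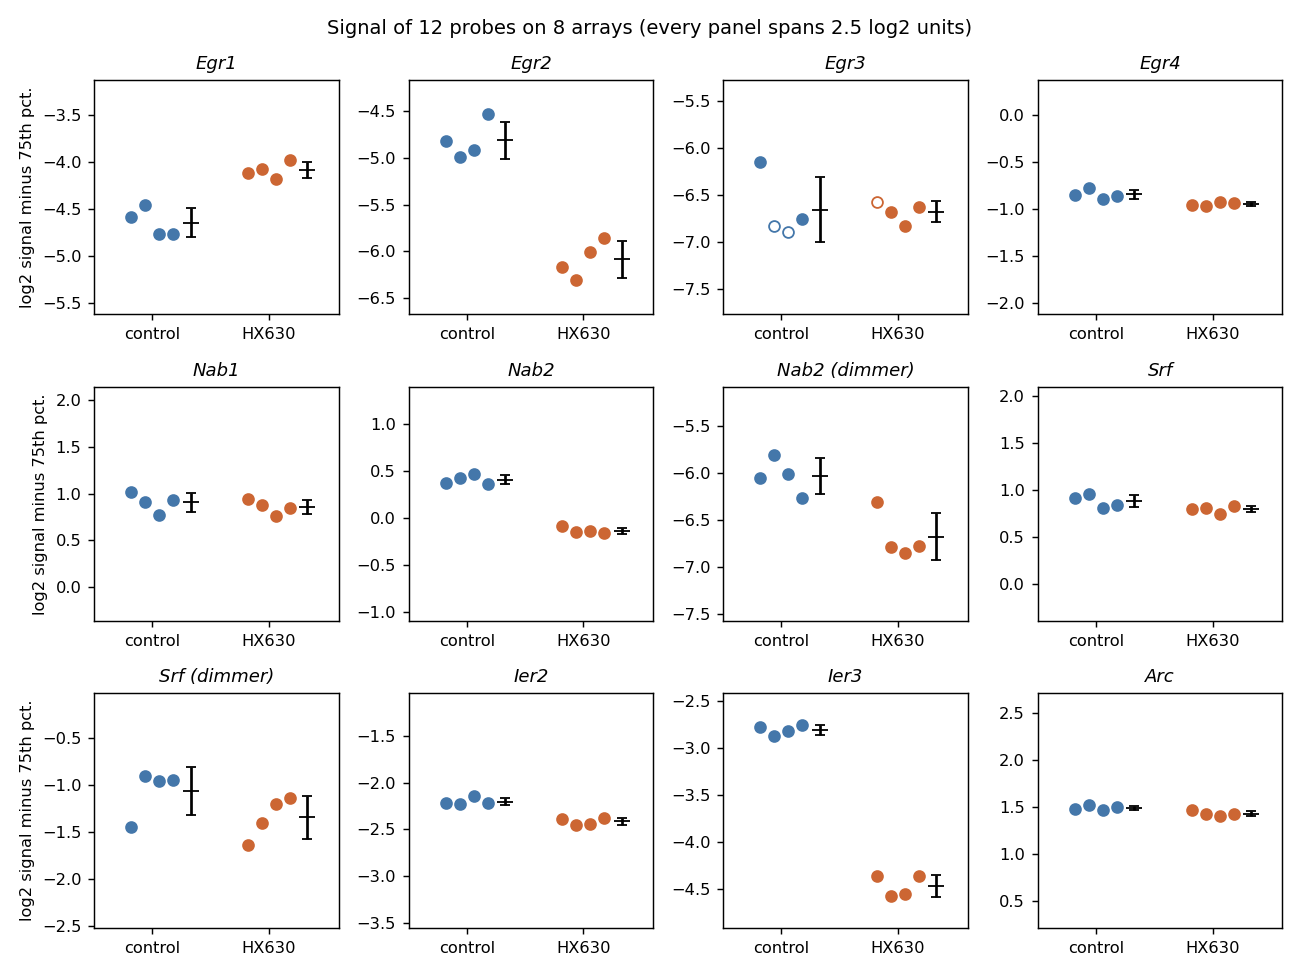
Log2 signal relative to the 75th percentile of each array for the 12 probes of the 10 genes on the 4 control (blue) and 4 HX630 (orange) arrays, with the mean ± SD beside each group. Open circles mark arrays on which the probe was not well above background, and every panel spans the same number of log2 units. *Egr2* and *Ier3* dropped clear of the control arrays, while *Arc*, *Srf*, *Nab1* and *Egr4* lay nearly level.

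The 4 EGR factors, which bind the same GC-rich sites, did not move together. *Egr2*, also known as Krox20, had signals of -4.83, -4.99, -4.92 and -4.53 on control arrays 1 to 4. On HX630 arrays 1 to 4 they were -6.16, -6.31, -6.01 and -5.86. The groups were well apart, with more than 0.8 between the lowest control and the highest HX630 array. The means were -4.82 ± 0.20 (SD, n = 4) and -6.09 ± 0.19 (SD, n = 4), which puts the log2 fold change at -1.27 with a standard error of 0.126 (limma adjusted p = 7.28e-05, 95% interval -1.56 to -0.98). The spot was dim, with processed intensities of 42.8 to 72.7 in the control and 23.3 to 32.7 with HX630, but it was well above background on all 8 arrays. With normexp background correction the log2 fold change was -0.84, the smallest of all settings, and *Egr2* was called lower under each of the 24 alternatives.

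*Egr1*, also known as Zif268 or NGFI-A, lay the other way. Its signals were -4.58, -4.46, -4.76 and -4.77 on control arrays 1 to 4 and -4.11, -4.07, -4.17 and -3.97 on HX630 arrays 1 to 4. Every HX630 array was higher than every control array (two-sided exact permutation test, p = 0.0286, the smallest that 4 against 4 arrays can give). The means were -4.64 ± 0.15 (SD, n = 4) and -4.08 ± 0.085 (SD, n = 4), and the log2 fold change was 0.56 with a standard error of 0.082 (limma adjusted p = 0.000609, 95% interval 0.37 to 0.75). The interval holds the fold change threshold of 0.585. As read by the scanner, the median brightness of the spot was 112 to 128 on the control arrays and 158.5 to 186 on the HX630 arrays, over a local background of 20 to 30. With normexp, which starts from these values, the log2 fold change was 0.27 and the adjusted p 0.0891. With each array's median, quantile normalization or the spike-in probes as the scale it was 0.65, 0.66 and 0.79, and *Egr1* was then called higher. It was also called without control replicate 2 (0.62) and without HX630 replicate 3 (0.59). Whether *Egr1* passed thus rested on the scale, the fold threshold and single arrays, whereas its value was above 0 under all 24 alternatives.

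*Egr4* had signals of -0.89 to -0.78 on the control arrays and of -0.97 to -0.93 on the HX630 arrays. The groups did not overlap, but the log2 fold change was only -0.10 (95% interval -0.18 to -0.02, adjusted p = 0.0381). *Egr3* was well above background on 2 of 4 control arrays and 3 of 4 HX630 arrays, with processed intensities of 11.9 to 19.3. Its log2 fold change was -0.02 with an interval of -0.40 to 0.36. With the probe this close to background, the interval does not bound a change of the transcript.

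**Figure D2:**
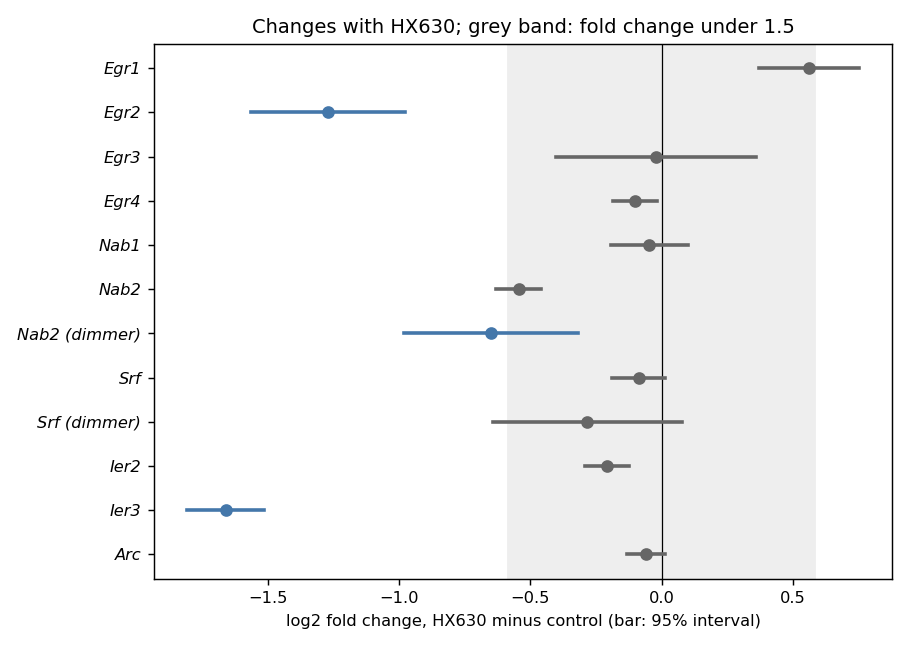
Log2 fold change of HX630 against control for the 12 probes, with the 95% interval of the limma fit as a bar. The grey band spans fold changes under 1.5, and probes in blue were called lower. *Egr2* and *Ier3* lie outside the band with their whole interval, whereas the intervals of *Egr1* and of both *Nab2* probes cross or reach its edge.

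The corepressors *Nab1* and *Nab2* are paralogs that bind the EGR factors. The brighter probe of *Nab2* (NM_008668) had signals of 0.38, 0.43, 0.46 and 0.37 on control arrays 1 to 4, and of -0.09, -0.15, -0.14 and -0.16 on HX630 arrays 1 to 4. The arrays of a group lay close together and the groups did not overlap. The log2 fold change was -0.54 with a standard error of 0.036 (limma adjusted p = 8.09e-06) and an interval of -0.63 to -0.46 that holds the threshold. The HX630 cells held 68.6% of the control signal. The dimmer probe, designed on another transcript (NM_001122895), was at -6.27 to -5.80 in the control and at -6.85 to -6.31 with HX630, a log2 fold change of -0.65 (adjusted p = 0.00521) that was called lower. Of all probes tested, 18.6% were called, with 7.46% higher and 11.2% lower. The call of the dimmer probe was lost under 13 of its 23 alternatives, with values between -0.77 and -0.42 over all of them. Averaged over both probes, *Nab2* was at -0.60 (adjusted p = 0.000362) and called. For *Nab1* the groups overlapped, with 0.77 to 1.02 in the control and 0.77 to 0.95 with HX630. Its log2 fold change was -0.05, with an interval of -0.19 to 0.10.

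*Srf* encodes the factor whose CArG boxes stand in its own promoter window above. The brighter probe read 0.92, 0.96, 0.81 and 0.84 on control arrays 1 to 4 and 0.80, 0.81, 0.74 and 0.82 on HX630 arrays 1 to 4, so the groups overlapped. The log2 fold change was -0.09 with a standard error of 0.043 (limma adjusted p = 0.121) and an interval of -0.19 to 0.01. The dimmer probe of the same transcript gave -0.28 with an interval of -0.64 to 0.08. A fall by the threshold of 0.585 is thus outside the interval of the brighter probe and inside that of the dimmer one.

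*Ier3*, also known as IEX-1, is an early gene with roles in cell survival. Its signals were -2.77, -2.87, -2.82 and -2.76 on control arrays 1 to 4 and -4.36, -4.57, -4.56 and -4.37 on HX630 arrays 1 to 4. No control array came near an HX630 array. The means were -2.80 ± 0.051 (SD, n = 4) and -4.46 ± 0.12 (SD, n = 4), or -1.66 as log2 fold change with a standard error of 0.063 (limma adjusted p = 5.15e-07), which is 3.16-fold. Over the 24 alternatives it stayed between -1.70 and -1.43 and was called lower in each. *Ier2*, which encodes a nuclear protein of early growth responses, was at -2.23 to -2.15 in the control and -2.45 to -2.38 with HX630. The groups did not overlap, but the log2 fold change was -0.21 (adjusted p = 0.00158), a fold change of 1.15. *Arc*, an early gene of neurons whose protein acts at synapses, was at 1.47 to 1.52 in the control and at 1.40 to 1.46 with HX630. The groups did not overlap here either, but the log2 fold change was -0.06, with an interval of -0.13 to 0.01.

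Small changes such as these depend on the scale. Scaling to the spike-in probes moved the median of all probes by 0.23 on the log2 scale. *Egr3*, *Egr4*, *Nab1*, *Srf*, *Ier2* and *Arc* then had values above 0, up to 0.21 for *Egr3*, and none of them was called. *Egr2*, *Ier3* and *Nab2* kept their sign under every scaling, at -1.04, -1.43 and -0.31 with the spike-in probes.

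**Figure D3:**
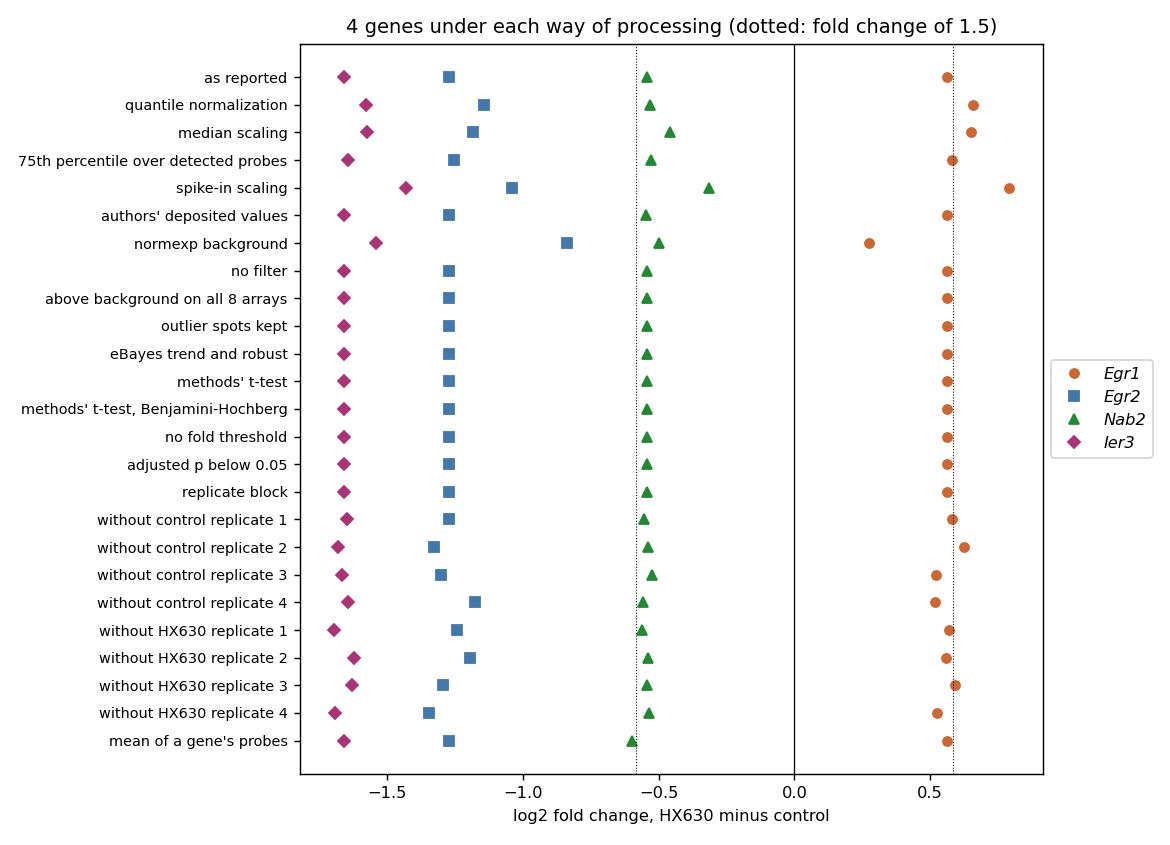
Log2 fold change of *Egr1*, *Egr2*, *Nab2* and *Ier3* as reported and under each of the 24 alternatives, with dotted lines at a fold change of 1.5. *Egr2* and *Ier3* stay left of the line throughout, whereas *Egr1* and *Nab2* lie around theirs.

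Other genes of the same pathway were taken from lists, each gene by its brightest probe, with the 11.2% called lower and 8.38% called higher over all genes as the background. Of the SRF cofactors, 5 of 6 were tested, 1 was called higher and 0 lower, and their median was 0.26. *Elk3*, a ternary complex factor that can repress SRF targets, had a mean signal of -1.30 ± 0.061 (SD, n = 4) in the control and -0.63 ± 0.065 (SD, n = 4) with HX630. This is a rise of 0.68 (adjusted p = 1.1e-05, limma). Its other probes gave 0.55 and 0.38, and the mean of all its probes was not called, at 0.54. *Myocd*, the muscle coactivator of SRF, was not tested.

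Of 26 other early genes with SRF or ternary complex input, 24 were tested, 14 were called lower and 1 higher, and the median was -0.68. Many of these genes were already known to be lower on these arrays when the list was written, so the count is no independent evidence of its direction. *Nr4a1*, which encodes Nur77, fell most. Its mean signal was 3.82 ± 0.065 (SD, n = 4) without and 0.49 ± 0.28 (SD, n = 4) with HX630, so that the log2 fold change was -3.33 (limma adjusted p = 5.65e-07). *Npas4*, a neuronal early factor, was at -2.40 (adjusted p = 2.04e-07) and *Maff*, a small Maf factor, at -1.85 (adjusted p = 2.29e-07) on the log2 scale, both called lower. *Fos*, the textbook SRF target, was at -2.53. The 1 gene called higher was *Gadd45b*, a stress-induced gene, at 1.00. Scaled to the spike-in probes, 10 were called lower and 3 higher. The EGR, NAB, SRF, IER and ARC genes thus stand beside a list with a larger share called lower, but the difference between the lists was not tested.

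**Figure D4:**
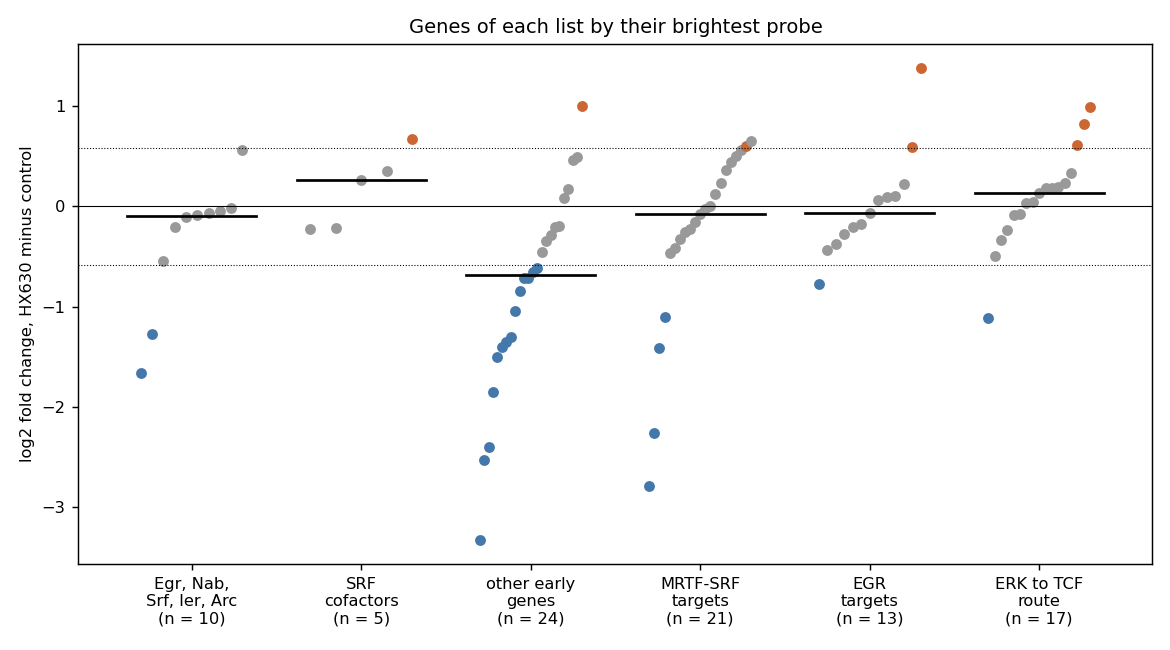
Log2 fold change of HX630 against control for the tested genes of each list, sorted within the list, with the median as a black line and dotted lines at a fold change of 1.5. Blue points were called lower, orange points higher and grey points neither. The median of the other early genes is at -0.68, while those of the other lists lie between -0.09 and 0.26.

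Among cytoskeletal genes driven by SRF with its MRTF coactivators, 21 of 25 were tested, and 4 were called lower and 1 higher, with a median of -0.07. *Fhl1*, a LIM domain protein of muscle, had mean signals of -1.49 ± 0.10 (SD, n = 4) and -3.75 ± 0.096 (SD, n = 4), a fall with a log2 fold change of -2.26 (limma adjusted p = 2.33e-07). The other genes called lower, named after their values were seen, were *Ccn1*, *Ccn2* and *Tpm2*, and the 1 called higher was *Myl9*, at 0.60. *Myl9* was not called under 10 of the 22 alternatives that tested it. These were normexp (-0.15), no filter, the methods' test after adjustment, the replicate block, and leaving out control replicate 2 or 3 or any HX630 replicate (0.52 to 0.63). Scaled to the spike-in probes, 6 genes of the list were called higher and 4 lower, and 3 were called higher with median scaling or quantile normalization. Among the 16 genes whose brightest probe cleared the background on every array, 0 were called higher and 1 lower. This count leaves out dimmer probes. *Tpm1*, named after its values were seen, was at 0.37 without a call by its brightest probe. Its dimmer probes at 1.05 (limma adjusted p = 4.71e-07) and 1.16 (adjusted p = 2.39e-06) were called higher and cleared the background on every array. Its remaining probes gave 0.05 and -0.05, without a call. *Ccn2*, a matricellular protein, did not clear the background on the 4 HX630 arrays. Its probe passed the filter through the control arrays alone, so no p-value is given. In the reported processing it was at least 4.71-fold lower on the HX630 arrays. The bound did not hold with normexp, where the log2 fold change was -1.48. For this bound, each HX630 array stood at its detection floor, the dimmest signal of any probe that clears the background, or at the probe's own signal where that was brighter. *Actb* was at -0.07 and *Vcl* at 0.45, both without a call.

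Of 17 genes known as EGR targets, 13 were tested, 2 were called higher and 1 lower, and the median was -0.06. *Syn2*, a synaptic vesicle protein, rose. Its mean signals were 2.64 ± 0.029 (SD, n = 4) and 4.02 ± 0.013 (SD, n = 4), so that the log2 fold change was 1.39 (limma adjusted p = 9.11e-08), and its other probe gave 1.45. *Syn1*, of the same family, was at 0.60 (adjusted p = 0.00206), a fold change of 1.51. It was no longer called without control replicate 1 (0.54), control replicate 2 (0.58), HX630 replicate 3 (0.54) or HX630 replicate 4 (0.56). *Vegfa*, an angiogenic growth factor, was at -0.78 (adjusted p = 4.32e-05), and at -0.55 without a call when scaled to the spike-in probes.

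A last list held the route from growth factor receptors through ERK to the ternary complex factors, together with the RSK and MSK kinases. These kinases are not steps from ERK to those factors. The list had 17 of 17 genes tested, 3 called higher and 1 lower, with a median of 0.14. *Mapk3*, which encodes ERK1, was called higher at 0.82 (limma adjusted p = 1.77e-06), with mean signals of 2.90 ± 0.054 (SD, n = 4) and 3.72 ± 0.045 (SD, n = 4). *Rps6ka5*, the kinase MSK1, was called higher at 0.99 (adjusted p = 7.36e-07). The other gene called higher, named after its value was seen, was *Sos1*, a Ras exchange factor, at 0.61. Its probe cleared the background on 2 of 4 control arrays. Leaving out control replicate 1 (0.56), control replicate 2 (0.58) or HX630 replicate 2 (0.58) ended the call, as did normexp (-0.24). *Rps6ka2*, an RSK kinase, fell by 1.12 (adjusted p = 1.93e-06) on the log2 scale. These are transcript levels and do not measure the activity of the kinases.

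By the rule for likeness, the genes whose signals followed *Egr1* most closely over the 8 arrays were *Casd1* (Pearson r = 0.994), *Slc7a5* (0.994) and *Flot1* (0.99), out of 14304 genes well above background on all arrays. The arrays fall into the 2 treatment groups, and all signals of an array share its scale. Taken as deviations from the group means, the r values were 0.956, 0.95 and 0.975. The genes were picked as the highest of 14304 on these same 8 arrays, so neither set of r values is independent support. The log2 fold changes of these genes were 0.46, 0.28 and 0.24, and none of them was called.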

How the data were processed

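RNA from 4 control and 4 HX630 samples of AtT20 cells was hybridized to Agilent 1-color mouse arrays. The scanner files that the authors deposited come from Feature Extraction 10.7.3.1 and give a processed intensity per spot, background subtracted but not scaled between arrays. They also deposited a table of log2 values, which equals the log2 processed intensity minus the 75th percentile of each array. Their methods name a t-test with a fold change threshold of 1.5 and a p-value of 0.01.

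Values were computed in R 4.3.3 with limma 3.58.1. Of 44397 spots, 1377 control spots were dropped, as were spots that the scanner software marked as outliers, and replicate spots were averaged. The 28552 probes that cleared the background on 4 or more of the 8 arrays were tested with lmFit and eBayes, with Benjamini-Hochberg adjustment over all of them. With 4 arrays a group, their number limits the precision. Probes were named by accession in a RefSeq table on GRCm38.p6 (26055 probes, 66.1%), while the array design uses another build, so no probe coordinates are given. The coordinates printed are those of the promoter windows on GRCm38.p6.

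The 10 genes and the gene lists were chosen with earlier results of these data known. Named genes are the 10 genes, *Fos*, up to 4 called genes per list with the largest changes that cleared the background on each of the 8 arrays, and the 3 genes most like *Egr1*. The 24 alternatives were other scalings, the deposited values, normexp on median spot brightness (offset 16), other filters, variance models, tests and thresholds, a replicate block, the mean of a gene's probes and each array left out in turn. The code was tested on simulated data.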

Additional observations from a re-analysis of the deposited data

Results flagged for a closer look

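In groups of 4 arrays, 4 of 48 groups had 1 array that lay far from the other 3, as judged by the gap to the nearest array over the range of the group, where chance gives about 1 in 20 groups, or 2.4. For the dimmer probe of *Nab2*, HX630 replicate 1 was at -6.31 against -6.85 to -6.78 on the others (ratio 0.865), and without it the log2 fold change moved from -0.65 to -0.77. For the dimmer probe of *Srf*, control replicate 1 was at -1.45 against -0.95 to -0.91 (ratio 0.917), and without it the log2 fold change moved from -0.28 to -0.41. For *Ier2*, control replicate 3 was at -2.15 against -2.23 to -2.22 (ratio 0.858), and the log2 fold change without it was -0.19. For *Fhl1*, control replicate 2 was at -1.65 against -1.46 to -1.43 (ratio 0.831), and the log2 fold change without it was -2.31.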

How the results depend on the processing

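*Egr2* and *Ier3* were called lower under all 24 alternatives, and neither these nor the called genes chosen by rule from the lists changed sign. Of the genes named after their values were seen, *Gadd45b*, *Ccn1* and *Tpm2* kept their call wherever they were tested. *Myl9* (-0.15) and *Sos1* (-0.24) went below 0 without a call with normexp. *Ccn1*, *Tpm2*, *Myl9* and *Sos1* were not tested where a probe had to clear the background on every array, and neither was *Ccn2*. The probe of *Ccn2* cleared the background on the control arrays alone, so its call under other settings does not show that it is stable. Among the 10 genes, 1 was called higher with quantile normalization, median scaling, spike-in scaling or no fold threshold, and 0 to 1 with an array left out. The number called lower was 4 without a fold threshold, 3 with the mean of a gene's probes and 2 under the other alternatives. *Egr1* passed with quantile normalization (0.66), median scaling (0.65), spike-in scaling (0.79) and no fold threshold (0.56), and lay between 0.52 and 0.62 with an array left out. Without a fold threshold *Nab2* (-0.54) and *Ier2* (-0.21) passed too, and *Nab2* passed as the mean of its probes (-0.60). The dimmer *Nab2* probe lost its call with quantile normalization (-0.47), median scaling (-0.56), spike-in scaling (-0.42) and normexp (-0.68). At -0.65, it also lost it with the trended and robust limma fit (adjusted p = 0.013) and the replicate block in limma (adjusted p = 0.0114). The same held for the methods' t-test after Benjamini-Hochberg adjustment (-0.65, adjusted p = 0.014). The call was lost as well without control replicate 1, 2 or 3 or HX630 replicate 2, 3 or 4. With an array left out, the probe lay between -0.77 and -0.57. The causes were not tested. Over all probes, 2131 were called higher and 3184 lower. Spike-in scaling gave 4293 and 1856, normexp 1355 higher, and no fold threshold 5763 and 7245. Of the probes called, 40.1% were higher, against 49.8% with quantile normalization, 51.6% with median scaling and 69.8% with spike-in scaling. The range with an array left out was 1944 to 2568 higher and 2879 to 3369 lower.

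Same-numbered arrays of the 2 groups deviated together with correlations of 0.523, -0.00926, 0.243 and 0.381, so the numbers were not taken to pair the samples. With the replicate block, 2210 probes were called higher and 3345 lower, and of the 10 genes 0 were called higher and 2 lower, and not every array correlated best with its own number. The signals of *Egr1*, *Egr2*, *Egr3* and the dimmer *Nab2* probe are close to background, which limits them.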
